A study of Homo sapiens with 21 samples.

Results

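The genes described are 41 heat shock chaperones and cochaperones of the cytosol and the mitochondria, taken as a named list of gene symbols. No measured value entered the rule, but earlier results of these data were known when the list was chosen. All 41 were present among the 61541 genes of the gene count table and, under 1404 of 685251 exon bins, among the 57300 gene names of the exon-bin files. In the exon-bin files 33 members had a name of their own and 8 shared a joined name with an overlapping gene (HSPA1B with SNHG32, HSPA8, HSPA9 and TCP1 with small nucleolar RNA genes, HSPA14 with MSANTD7, HSPE1 with MOB4, TRAP1 with an unnamed gene and DNAJB4 with GIPC2), so their values there include the partner's reads.

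The 21 RNA-seq libraries, in 7 groups of 3, came from K562, a human cell line established from chronic myeloid leukaemia that keeps erythroid features. In the first pair of experiments an enhancer RNA, a transcript made from an active enhancer, was overexpressed: 34kn with its own 3 control libraries (labelled 34knContol) and 34kp with its own 3 (labelled 34kpContol), both from an enhancer 34 kb upstream of MYB. In the third experiment 3 libraries carried an empty vector, 3 were labelled MYB overexpression and 3 NMYB overexpression, where the design text speaks of MYB and of a form truncated at its N terminus. All groups were K562 grown in the same serum-containing medium, with no other allele or agent named. The promoters of the vectors and the number of clones are not given in the sources used here, nor whether the 3 libraries of a group came from separate cultures. Each p-value is therefore set against a spread between libraries that may be technical only.

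MYB itself was measured at 215 ± 4.43 CPM (counts relative to library size) with empty vector, 227 ± 4.53 in the libraries labelled MYB and 211 ± 8.38 in those labelled NMYB (mean ± SD, n = 3). The log2 fold change of MYB against empty vector in edgeR was 0.08 (SE 0.04, adjusted p = 0.23) and -0.03 (SE 0.04, adjusted p = 0.73). The counts of MYB itself thus did not set the overexpression groups apart, and every direction given for them rests on the labels. Library totals ran from 16552237 to 24462819 gene counts and from 36563252 to 41243796 exon-bin counts. The 10 erythroid markers checked for K562 were above 1 CPM in all 7 groups, and of 15 markers of T cells, monocytes, fibroblasts and epithelial cells, 5 reached 1 CPM in any group (CD3D, LYZ, COL1A1, COL1A2 and EPCAM).

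Heat shock chaperones bind proteins that are unfolded or newly made and help them reach or regain their shape. Hsp70 proteins take up short stretches of such chains in cycles driven by ATP, J proteins deliver the chains and start the cycle, Hsp110 and BAG proteins exchange the nucleotide that ends it, and Hsp90 with its cochaperones finishes the folding of kinases and receptors. The chaperonins TRiC in the cytosol and HSPD1 with HSPE1 in mitochondria enclose whole proteins, and the transcription factor HSF1 switches on many of these genes by binding heat shock elements, inverted repeats of GAA, in their promoters.

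Promoter sequences were read from the RefSeq table for GRCh38.p14, which held 54 promoters of 38 of the 41 members among 35116 in all, each 300 bases long. The heat shock element with 3 units, which is GAANNTTC running on into TTCNNGAA over a shared TTC, was searched on both strands and found in 7 of the 54 member promoters (13.0%) and in 172 of all 35116 (0.49%). It lay in promoters of 7 members, namely CHORDC1, DNAJA1, DNAJB6, HSP90AA1, HSP90AB1, HSPA8 and HSPD1. Of the 2-unit forms that it contains, GAANNTTC occurred in 27.8% of member promoters, from 14 genes including HSPA1A, HSPA1B and HSPB1, against 6.77% of all promoters, and TTCNNGAA in 22.2% against 7.74%. A match is a description of letters in a window and not evidence of a bound site.

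The promoters shown are those of the members that were called at gene level in a comparison and hold the 3-unit element, together with HSPB1, the member with the largest change, which was added after its values were seen and holds the 2-unit form GAANNTTC. Each is given from 250 bases before to 20 bases after the start site, 5′ to 3′ on the strand of the gene, with the element in capitals. In HSPA8 (chr11:123062117-123062386, minus strand) the 2 matches begin 230 and 55 bases before the start, and in HSPD1 (chr2:197499821-197500090, minus strand) 2 overlapping matches begin 245 and 240 bases before it. In DNAJA1 (chr9:33025023-33025292, plus strand) the match begins 3 bases after the start, and in HSPB1 (chr7:76302423-76302692, plus strand) 182 bases before it.
HSPA8: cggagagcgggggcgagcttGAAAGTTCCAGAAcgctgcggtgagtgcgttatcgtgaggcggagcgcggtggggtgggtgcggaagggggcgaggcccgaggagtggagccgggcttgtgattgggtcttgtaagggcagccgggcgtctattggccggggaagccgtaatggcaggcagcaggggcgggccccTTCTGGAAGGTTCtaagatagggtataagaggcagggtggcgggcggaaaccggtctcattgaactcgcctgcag
HSPD1: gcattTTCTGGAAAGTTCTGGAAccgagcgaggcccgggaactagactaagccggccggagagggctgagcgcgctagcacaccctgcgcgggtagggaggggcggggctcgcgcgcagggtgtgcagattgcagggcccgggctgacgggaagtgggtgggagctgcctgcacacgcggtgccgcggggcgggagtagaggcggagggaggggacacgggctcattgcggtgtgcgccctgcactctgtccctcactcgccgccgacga
DNAJA1: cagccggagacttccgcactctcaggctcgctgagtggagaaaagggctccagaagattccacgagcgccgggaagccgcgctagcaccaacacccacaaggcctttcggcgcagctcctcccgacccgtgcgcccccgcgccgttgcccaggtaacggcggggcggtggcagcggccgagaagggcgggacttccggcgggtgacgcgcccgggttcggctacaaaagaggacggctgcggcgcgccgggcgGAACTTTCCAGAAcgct
HSPB1: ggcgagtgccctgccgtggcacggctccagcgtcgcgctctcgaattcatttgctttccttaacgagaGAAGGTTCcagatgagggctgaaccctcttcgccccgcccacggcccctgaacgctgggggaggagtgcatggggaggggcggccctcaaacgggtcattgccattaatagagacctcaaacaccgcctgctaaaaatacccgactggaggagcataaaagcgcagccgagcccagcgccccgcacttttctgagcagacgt

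In the empty-vector libraries the members spanned a wide range of levels, compared per kilobase (kb) of exon. HSP90AB1, the constitutive cytosolic Hsp90, stood highest at 1989 ± 40.7 CPM per kb (mean ± SD, n = 3). HSPA8, the constitutive Hsp70 of the cytosol, followed at 774 ± 17.0, and HSP90AA1, the inducible Hsp90, at 595 ± 22.6. These 3 genes did not overlap one another or any lower gene in any library. The mitochondrial chaperonin HSPD1 came next at 247 ± 4.59 CPM per kb, ahead of the TRiC subunits, which ranged from 235 ± 5.04 for CCT8 to 116 ± 0.771 for CCT2.

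Heat-inducible Hsp70 was present without heat shock, at 117 ± 2.15 CPM per kb for HSPA1A and 61.9 ± 3.76 for HSPA1B. HSF1 and HSF2, the regulators, were low at 15.1 ± 0.966 and 13.5 ± 0.101, and BAG1, DNAJB4 and HSPA4L, an Hsp110, were lowest at 7.29 ± 0.158, 6.10 ± 0.188 and 6.04 ± 0.243. Along the order of the 41 levels, 15 of the 40 neighbouring pairs overlapped in the empty-vector libraries, among them HSPA1A with CCT2, HSF1 with CHORDC1 and HSPE1 with HSF2. The level of HSPE1, 13.6 ± 0.709 CPM per kb against 247 ± 4.59 for its partner HSPD1, needs care. GENCODE 29 lists 26 pseudogenes named after HSPE1 and 17 after HSPD1, out of 90 named after 15 members, and the counting of reads that fit several copies is not given in the sources used here. HSPE1 (chr2:197499994-197503457, plus strand) also lies within the GENCODE span of HSPD1 (chr2:197486581-197516737, minus strand), and without a known strand setting reads from their overlap cannot be told apart. HSPA1A (chr6:31815464-31817946) and HSPA1B (chr6:31827735-31830255, both GRCh38, plus strand) likewise differ at 4 of 1923 coding bases, an identity of 99.8%, so the split of reads between them is uncertain.

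**Figure D1:**
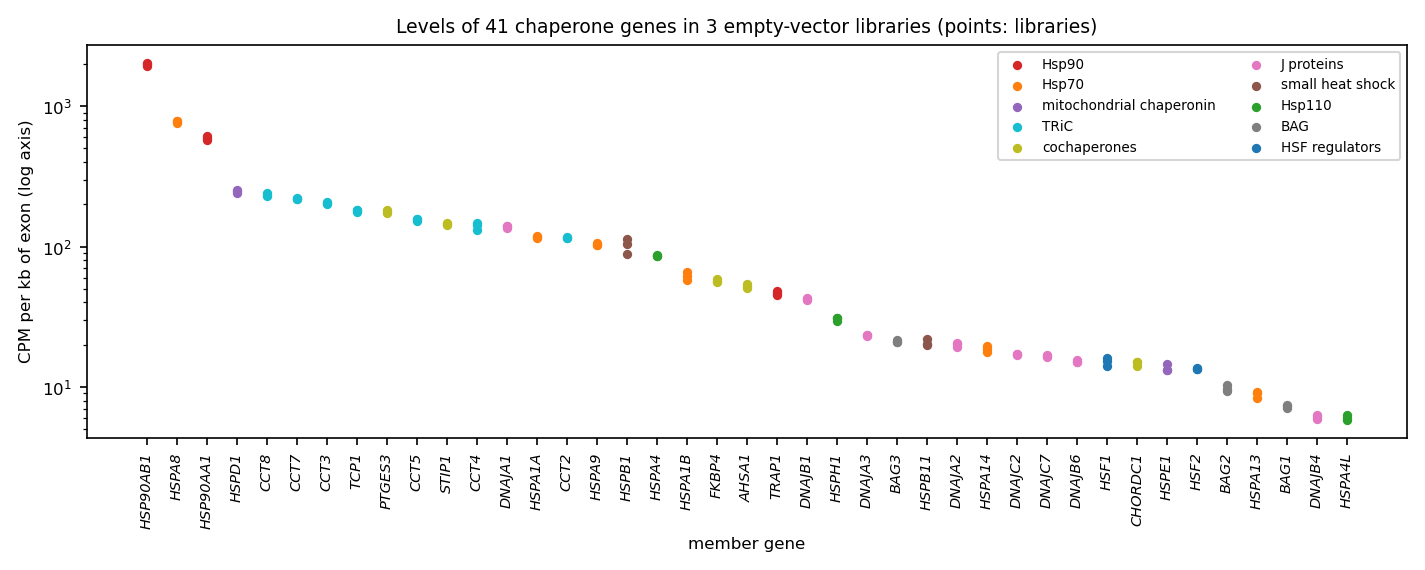
Levels of the 41 members in the 3 empty-vector libraries, in CPM per kb of exon on a log axis, ordered by their mean and coloured by role, with 1 point per library. HSP90AB1, HSPA8 and HSP90AA1 lie apart at the top, and 15 of 40 neighbouring pairs overlap.

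The comparison of libraries labelled MYB with empty vector addressed which genes are affected by MYB. A group of chaperones was modestly higher in the libraries labelled MYB: 10 of 41 members rose and 1 fell (edgeR quasi-likelihood F test, adjusted p below 0.05). Over all 15823 genes tested, 22.3% were called, 9.62% as higher and 12.7% as lower. The largest rise was in HSPB1, the small heat shock protein that holds unfolded chains without ATP, at 1.58-fold its empty-vector level, and the fall was in TRAP1, the mitochondrial Hsp90. The median log2 fold change of the 41 members was 0.07, beside 0.005 over all genes, and 31 of 41 were above 0. The share of all counts held by the members was 2.44% to 2.50% with empty vector and 2.69% to 2.71% in the libraries labelled MYB. The 30 members not called ranged from -0.14 for HSPA4L to 0.19 for HSPA1A in log2 fold change. In bulk samples, fewer cells of a kind and less RNA per cell cannot be told apart.

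The regulators were not called. HSF1 measured 74.5, 84.6 and 81.1 CPM with empty vector and 79.6, 79.2 and 71.5 in the libraries labelled MYB, which overlapped, with a log2 fold change of -0.06 (SE 0.07, adjusted p = 0.61). HSF2 measured 36.6, 36.1 and 36.3 and 33.5, 32.5 and 35.7, where all 3 libraries labelled MYB lay lower, with -0.10 (SE 0.07, adjusted p = 0.31).

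Among the Hsp70 genes, HSPA8 rose and the heat-inducible pair was not called. HSPA8 was at 3801, 3656 and 3798 CPM with empty vector and at 4482, 4414 and 4299 in the libraries labelled MYB, all 3 above every control, a log2 fold change of 0.23 (SE 0.04, adjusted p = 9.8e-05). HSPA1A measured 285, 296 and 292 and 350.3, 341 and 303, also without overlap, but its 0.19 (SE 0.09, adjusted p = 0.16) missed the threshold. For HSPA1B the values of 147, 166 and 156 and 185, 162 and 159.7 overlapped, with 0.11 (SE 0.06, adjusted p = 0.18). HSPH1, an Hsp110 that releases ADP from Hsp70, was at 247, 259.6 and 259 CPM and at 316, 304 and 318, a rise of 0.29 (SE 0.05, adjusted p = 2.7e-04).

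Both parts of the mitochondrial chaperonin rose. HSPE1, the lid of the folding chamber, measured 26.3, 28.6 and 26.0 CPM with empty vector and 33.2, 32.1 and 41.7 in the libraries labelled MYB, the third of which stood above the other two, with 0.40 (SE 0.09, adjusted p = 0.0025). HSPD1, the chamber itself, rose by less, by 0.15 (SE 0.04, adjusted p = 0.011). TRAP1 went the other way: 238, 253 and 245 CPM with empty vector against 208, 201 and 197, all lower, and -0.28 (SE 0.06, adjusted p = 0.0026). The cytosolic Hsp90 genes HSP90AA1 and HSP90AB1 were not called, at 0.07 and 0.05.

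HSPB1 measured 145, 186 and 171 CPM with empty vector and 255, 282 and 259 in the libraries labelled MYB. The groups were apart, although the controls themselves spread over a wide range. HSPB1 rose by 0.66 (SE 0.12, adjusted p = 0.0039). Of 8 J proteins 2 rose: DNAJC2, which works at the ribosome on chains being made, from 113, 113 and 111 to 139, 142 and 137 CPM, by 0.31 (SE 0.06, adjusted p = 4.9e-04), and DNAJA1, a general partner of HSPA8, by 0.13 (SE 0.04, adjusted p = 0.026). BAG1, which couples Hsp70 to the proteasome, measured 50.4, 51.8 and 52.6 and 59.3, 58.3 and 61.4 CPM, without overlap, and rose by 0.21 (SE 0.05, adjusted p = 0.007). PTGES3, the Hsp90 cochaperone p23, rose by 0.14 (SE 0.05, adjusted p = 0.037), and of the 7 TRiC subunits TCP1 alone, by 0.13 (SE 0.04, adjusted p = 0.021).

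Groups that did not overlap were seen for 17 members on the higher side (19.8% of all genes) and 4 on the lower side (20.7%). The calls of HSPB1, HSPE1, DNAJC2, HSPH1, TRAP1, HSPA8 and BAG1 were kept without any 1 library. HSPD1 was no longer called without MYB replicate 3 (adjusted p = 0.058). DNAJA1 and TCP1 were lost without empty-vector replicate 2 or 3 or MYB replicate 1 or 3, with adjusted p up to 0.09 and 0.10, and PTGES3 without any of 5 libraries, MYB replicate 2 being the exception, with adjusted p up to 0.14. Without MYB replicate 3, 7 members were called and 15.8% of all genes, in place of 22.3%. Scaled by total count, 2130 genes of all were higher and 1622 lower, in place of 1522 and 2007, and the members' count was 12 higher and 1 lower.

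**Figure D2:**
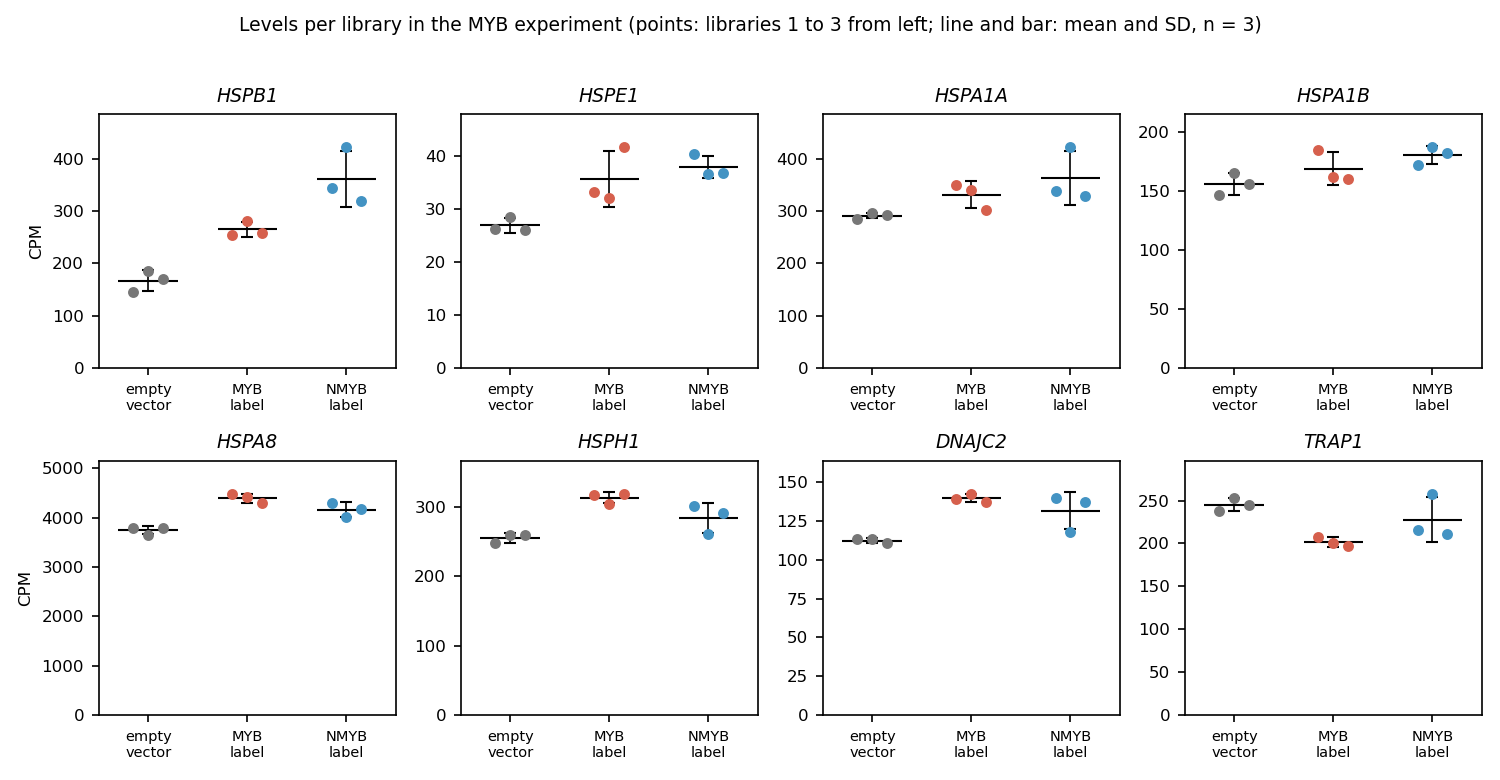
Levels in CPM, scaled by TMM, of 8 members in the 9 libraries of the MYB experiment, with 1 point per library and the mean and SD of each group (n = 3). HSPB1 steps up from empty vector to the libraries labelled MYB and again to those labelled NMYB, a second step that was not called, while TRAP1 is lower in all 3 libraries labelled MYB.

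The libraries labelled NMYB were compared with the same empty-vector libraries, so the 2 comparisons share their controls. With NMYB, 10 of 41 members rose and 1 fell, where 24.9% of all 15823 genes were called, 12.6% higher and 12.4% lower. HSPB1 again changed most, to 2.16-fold its empty-vector level, and the heat-inducible pair HSPA1A and HSPA1B was called here. The member that fell was HSPA4L. The median log2 fold change of the members was 0.04, beside 0.008 over all genes, and 27 of 41 were above 0. The 30 members not called ranged from -0.11 for HSF2 to 0.16 for HSPB11 in log2 fold change.

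HSPB1 measured 344, 421 and 319.6 CPM in the libraries labelled NMYB, all above the 145, 186 and 171 of empty vector, a log2 fold change of 1.11 (SE 0.12, adjusted p = 2.0e-04). HSPE1 measured 40.4, 36.7 and 36.9, again all higher, with 0.50 (SE 0.09, adjusted p = 4.1e-04). HSPA1A reached 338, 421 and 328 CPM, of which the second library stood well above the other two, and its fold change was 0.31 (SE 0.09, adjusted p = 0.022). HSPA1B reached 172, 187 and 182, with 0.21 (SE 0.06, adjusted p = 0.015). Summed as 1 gene, the pair was still called. HSPA8 was at 4307, 4019 and 4173 CPM, above every control, with 0.15 (SE 0.04, adjusted p = 0.004).

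BAG1 measured 63.6, 62.2 and 60.9 CPM and rose by 0.27 (SE 0.05, adjusted p = 8.9e-04), and BAG2, which inhibits the ubiquitin ligase that acts on Hsp70 clients, measured 76.5, 69.7 and 75.4 against 64.3, 68.8 and 61.9 and rose by 0.19 (SE 0.06, adjusted p = 0.03). DNAJC2 measured 139.6, 118 and 137 CPM, again above every control, and rose by 0.23 (SE 0.06, adjusted p = 0.006). HSPA4L was lower in all 3 libraries, at 63.9, 58.3 and 62.0 against 73.2, 67.6 and 69.9 CPM, with -0.19 (SE 0.06, adjusted p = 0.016). HSPH1 and AHSA1, which speeds the ATPase of Hsp90, rose by 0.15 and 0.15 (adjusted p = 0.029 and 0.029). HSF1 was at 82.1, 100.4 and 82.9 CPM and HSF2 at 34.9, 30.1 and 35.6. Neither was called, at 0.14 (SE 0.07, adjusted p = 0.17) and -0.11 (SE 0.07, adjusted p = 0.26). TRAP1, at 215, 258 and 211 CPM, overlapped the empty-vector libraries and was not called, with -0.11 (SE 0.06, adjusted p = 0.22).

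NMYB replicate 2 differed from the other two in several members. It was highest of the group in 11 of 41 members, among them HSF1, HSPA1A, HSPB1 and TRAP1, and lowest in 26, among them HSPA8, HSPH1, HSP90AA1, HSPD1 and DNAJC2. Without it, 17 members were called, 15 higher and 2 lower, and the log2 fold change of HSPA1A fell from 0.31 to 0.19 and stayed called. Without empty-vector replicate 1, 6 members were called, and without empty-vector replicate 3, 7 were. Over all genes 24.1%, 16.8% and 17.3% were called in these fits, in the same order, in place of 24.9%. HSPB1, HSPE1, HSPA1A, HSPA8 and BAG1 were called without any 1 library. HSPA1B was lost without empty-vector replicate 1 or 3 (adjusted p up to 0.084), HSPA4L without empty-vector replicate 1 (0.096) and DNAJC2 without NMYB replicate 1 (0.052). BAG2 was lost without empty-vector replicate 1 or 3 or NMYB replicate 1 or 3 (up to 0.17), HSPH1 without any library but NMYB replicate 2 (up to 0.20) and AHSA1 without any empty-vector library or NMYB replicate 2 (up to 0.11). Groups did not overlap for 17 members on the higher side (19.4% of all genes) and 3 on the lower side (19.5%).

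The 2 overexpression groups were also compared directly. Of the 41 members 0 were called between NMYB and MYB, with 1.14% of all genes called by edgeR. At an unadjusted p below 0.05 there were 6 of 41 members and 2806 of all 15823 genes. DESeq2 called 0 members and 1.69% of all genes. HSPB1 came nearest: it was higher in all 3 libraries labelled NMYB than in any labelled MYB, with a difference of 0.45 (SE 0.11, adjusted p = 0.10) and a 95% interval of 0.19 to 0.71. It was called when NMYB replicate 3 was left out. The intervals, which are not adjusted for the number of genes, were 0.05 to 0.30 for TRAP1, -0.06 to 0.32 for HSPA1A, -0.24 to -0.04 for HSPH1 and -0.18 to -0.01 for HSPD1. Groups did not overlap for 5 members on the higher side (13.1% of all genes) and 2 on the lower side (9.75%).

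Markers of other states moved with these comparisons, and their part in the results was not tested. The summed level of the 10 erythroid markers was 2176 to 2208 CPM with empty vector, 1902 to 1951 with MYB and 1969 to 1982 with NMYB. TFRC, the transferrin receptor, carried most of that sum (1202 CPM on average with empty vector) and was called as lower in both (-0.31 and -0.38), as was LMO2, while HBE1 and GATA1 were called as lower with MYB. KLF1 was called as higher in both (0.26 and 0.52) and HBG1 with NMYB (0.17). Of the 10, 1 rose and 4 fell with MYB, and 2 rose and 2 fell with NMYB. The sum of 3 monocyte markers, which is nearly all LYZ since CD14 and CSF1R were below 1 CPM, was 23.6 to 28.5, 31.9 to 36.9 and 35.9 to 39.2. That of 4 T-cell markers, of which CD3D alone reached 1 CPM, was 31.4 to 32.3, 12.2 to 14.7 and 15.6 to 17.0. COL1A1, a fibroblast marker, was called as lower in both groups (-0.95 and -1.14), and the sum of 5 fibroblast markers was 10.8 to 11.2, 8.77 to 9.31 and 9.19 to 9.92.

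Other genes of the folding machinery, from lists kept apart from the members, were read in the same fits. Of 10 genes of prefoldin, which hands actin and tubulin chains to TRiC, and of TRiC partners, 4 rose with MYB and the same number with NMYB, and 0 fell. With NMYB these included PFDN6 at 0.35, PFDN2 at 0.34 and PDCL3 at 0.31. Of 11 further Hsp90 cochaperones 2 rose and 1 fell with MYB, and 3 rose and 1 fell with NMYB. TTC4 rose (0.65 and 0.60) and so did CACYBP (0.20 and 0.23), while FKBP5 fell (-0.28 and -0.31).

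Of 9 tested genes among further heat-inducible ones, 4 rose and 3 fell with MYB, and 5 rose and 2 fell with NMYB. HSPA6, the strictly inducible Hsp70, fell in both, with -0.81 (SE 0.14, adjusted p = 2.7e-04) for MYB and -0.62 (SE 0.14, adjusted p = 0.0028) for NMYB, as did DNAJB5 (-0.76 and -0.58). SERPINH1, the collagen chaperone, rose (0.27 and 0.46), and so did ZFAND2A (0.41 and 0.41). Among 9 further J proteins 0 were called with MYB and 2 rose with NMYB, namely DNAJB2 (0.50) and DNAJB12 (0.17). Of 11 genes of mitochondrial protein quality control, DNAJC19 rose with MYB (0.18), and with NMYB 2 rose, CLPP (0.47), a protease subunit, and DNAJC19 (0.29). Of all these genes 0 were called between NMYB and MYB.

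**Figure D3:**
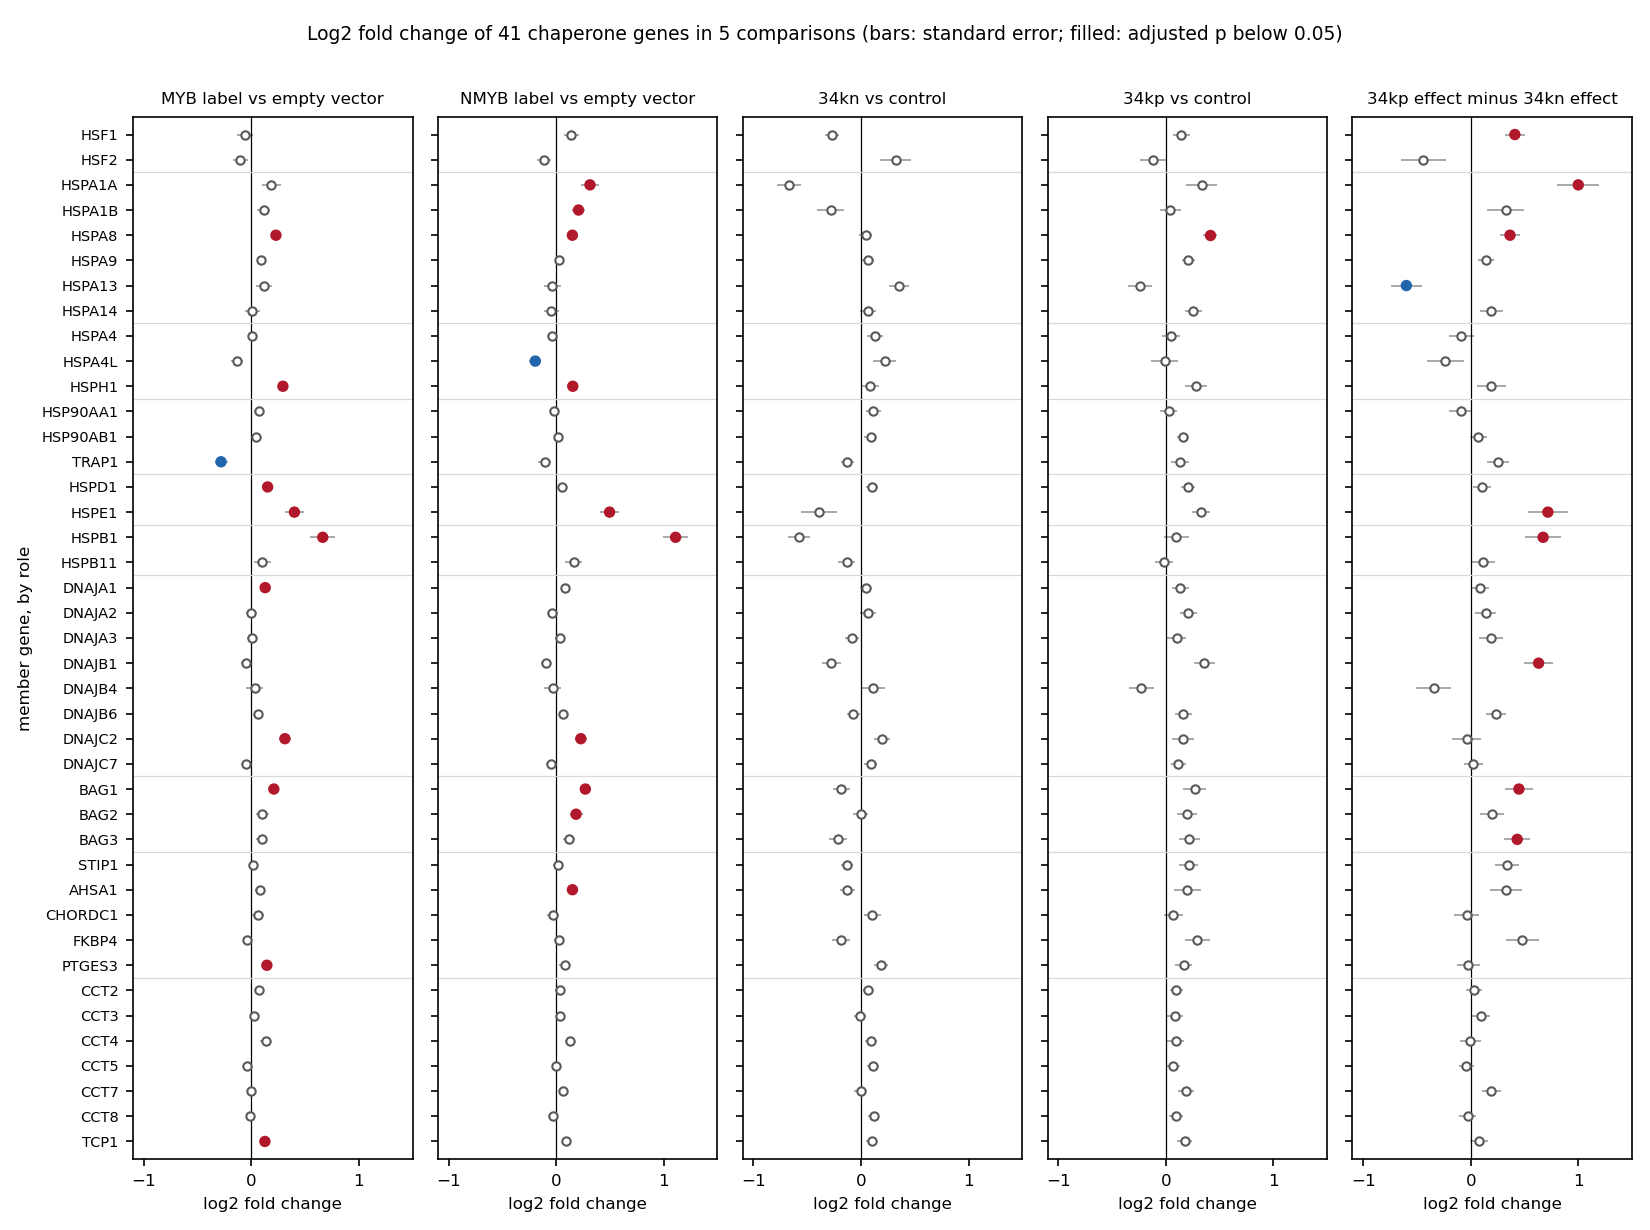
Log2 fold change of the 41 members with its standard error in 5 comparisons, ordered by role, with filled points for adjusted p below 0.05 in edgeR (red higher, blue lower). HSPB1 is the highest point against empty vector in both overexpression groups, and in the fourth panel 36 of 41 members lie above 0 although HSPA8 alone is filled.

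For 34kn overexpression against its controls, edgeR called 0 of 41 members, as it did for every gene tested (0.0% of 16116). At an unadjusted p below 0.05 there were 15 members and 3759 genes. DESeq2 called 4 members, HSF1, HSPA1A and HSPB1 as lower and HSPA13 as higher, and 5.91% of all genes. The members were divided in direction, with 23 of 41 above 0 and a median log2 fold change of 0.06, beside 0.002 over all genes.

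The lowest value was that of HSPA1A, which measured 55.0, 39.5 and 46.0 CPM of summed bin counts in the controls and 27.9, 30.1 and 30.8 with 34kn, all lower, for a log2 fold change of -0.67 (SE 0.11, adjusted p = 0.064). HSPB1 measured 359.8, 264 and 284 and 195, 198 and 219, again without overlap, with -0.58 (SE 0.10, adjusted p = 0.064). HSF1 measured 129.7, 135 and 131 and 104, 113 and 114, also all lower, with -0.27 (SE 0.06, adjusted p = 0.072). HSPA1B, at 217, 147 and 165 and 141, 138 and 158, and HSF2, at 22.6, 37.8 and 30.3 and 36.0, 39.4 and 38.6, overlapped, with -0.28 (SE 0.12, adjusted p = 0.20) and 0.32 (SE 0.14, adjusted p = 0.20). The highest value was in HSPA13, an Hsp70 of the microsomes, at 24.3, 29.6 and 28.3 against 35.7, 33.6 and 36.2 CPM, with 0.35 (SE 0.09, adjusted p = 0.078). Groups did not overlap for 10 members on the higher side (14.3% of all gene names), 5 of them TRiC subunits (CCT2, CCT4, CCT5, CCT8 and TCP1), and for 7 on the lower side (14.8%), HSF1, HSPA1A, HSPB1, DNAJB1, BAG1, BAG3 and STIP1.

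The control libraries spread more than those with 34kn. Control replicate 1 was highest of the controls in 12 of 41 members, among them HSPE1 (284, 169 and 201 CPM in the 3 controls), HSPB1, HSPA1A and HSPA1B, and lowest in 28, among them HSPA8, HSP90AA1 and HSPH1. In that library 40.96% of the counts of all single genes lay in start-side bins, those before the middle of the bins of a gene, against 37.9% and 38.9% in the other controls. Without control replicate 2, 15 members were called, 8 higher and 7 lower, and without control replicate 1, HSF1, HSPA1A and HSPB1 were called as lower. Over all gene names 18% were called without control replicate 2 and 2.71% without control replicate 1, in place of 0.0%, so the count for 34kn depends on which controls enter it. The summed erythroid markers, with HBG1, HBG2 and HBE1 counted once under the 1 joined name they share in these files, were 12157 to 13126 CPM in the controls and 11529 to 11884 with 34kn, and their part in these values was not tested.

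With 34kp overexpression HSPA8 rose, 1 of 41 members, where 2.35% of all 16662 gene names were called and 0.63% as higher. HSPA8 measured 2375, 2199 and 2509.6 CPM in the controls and 3042, 3128 and 3276 with 34kp, all 3 above every control, 1.33-fold on the means and 0.41 (SE 0.06, adjusted p = 0.009) on the log2 scale. Most other members were also above 0, 36 of 41 in all, with a median log2 fold change of 0.16 beside -0.005 over all gene names. Groups did not overlap for 17 members on the higher side (10.9% of all gene names) and for 0 on the lower side (12.9%). All 5 cochaperones, all 7 TRiC subunits, all 3 Hsp90 genes and all 3 BAG genes had values above 0, and the 5 members below 0 were HSF2, HSPA13, HSPA4L, HSPB11 and DNAJB4. The 40 members not called ranged from -0.24 for HSPA13 to 0.36 for DNAJB1 in log2 fold change.

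DNAJB1, the J protein that starts the cycle of inducible Hsp70, measured 49.9, 53.4 and 58.0 CPM in the controls and 76.4, 66.6 and 64.3 with 34kp, without overlap, and its 0.36 (SE 0.10, adjusted p = 0.087) missed the threshold. HSPE1 measured 141, 126 and 139 and 189, 159.7 and 162, also without overlap, with 0.33 (SE 0.09, adjusted p = 0.081). HSPA1A, at 29.95, 33.8 and 39.0 and 52.6, 40.5 and 36.7, overlapped, with 0.33 (SE 0.14, adjusted p = 0.25), and HSPA1B, at 164, 171 and 183 and 206, 172 and 158, gave 0.04 (SE 0.10, adjusted p = 0.86). HSF1 measured 112, 108 and 115 and 132, 123 and 117, just apart, with 0.14 (SE 0.08, adjusted p = 0.37), and HSF2 49.1, 40.1 and 44.9 and 34.4, 42.8 and 47.2, with -0.12 (SE 0.12, adjusted p = 0.68).

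The call of HSPA8 was lost without 34kp control replicate 2 or without 34kp replicate 2 (adjusted p up to 0.10). Without 34kp replicate 3, 7 members were called as higher (HSPA8, HSPE1, DNAJB1, BAG1, STIP1, AHSA1 and FKBP4), and without 34kp replicate 1, 2 were, HSPA8 and HSPA14. Those fits called 6.85% and 3.58% of all gene names, in place of 2.35%. DESeq2 called 4 members as higher, HSPA8, HSPA14, HSPE1 and DNAJB1, and 5.74% of all gene names. Scaled by total count, 75 gene names were higher and 409 lower, in place of 105 and 287, and HSPA8 was called either way. Among the genes of the lists kept apart from the members, DNAJB2, a J protein, was called with 34kp, as lower, with -0.90 (SE 0.19, adjusted p = 0.033), and with 34kn 0 were. Reads of low alignment quality made up 4.46% to 4.64% of counted items with 34kp and 7.14% to 8.35% in its controls, and the summed erythroid markers were 8793 to 9196 CPM and 8221 to 8786. COL1A1 was called as lower with 34kp (-0.59), as 1 of 3 fibroblast markers tested. The other 2 were above 0, up to 0.46, and not called. The sum of 5 fibroblast markers was 33.9 to 41.7 CPM with 34kp and 39.9 to 40.6 in its controls, which overlapped. The part of these measures in the member values was not tested.

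**Figure D4:**
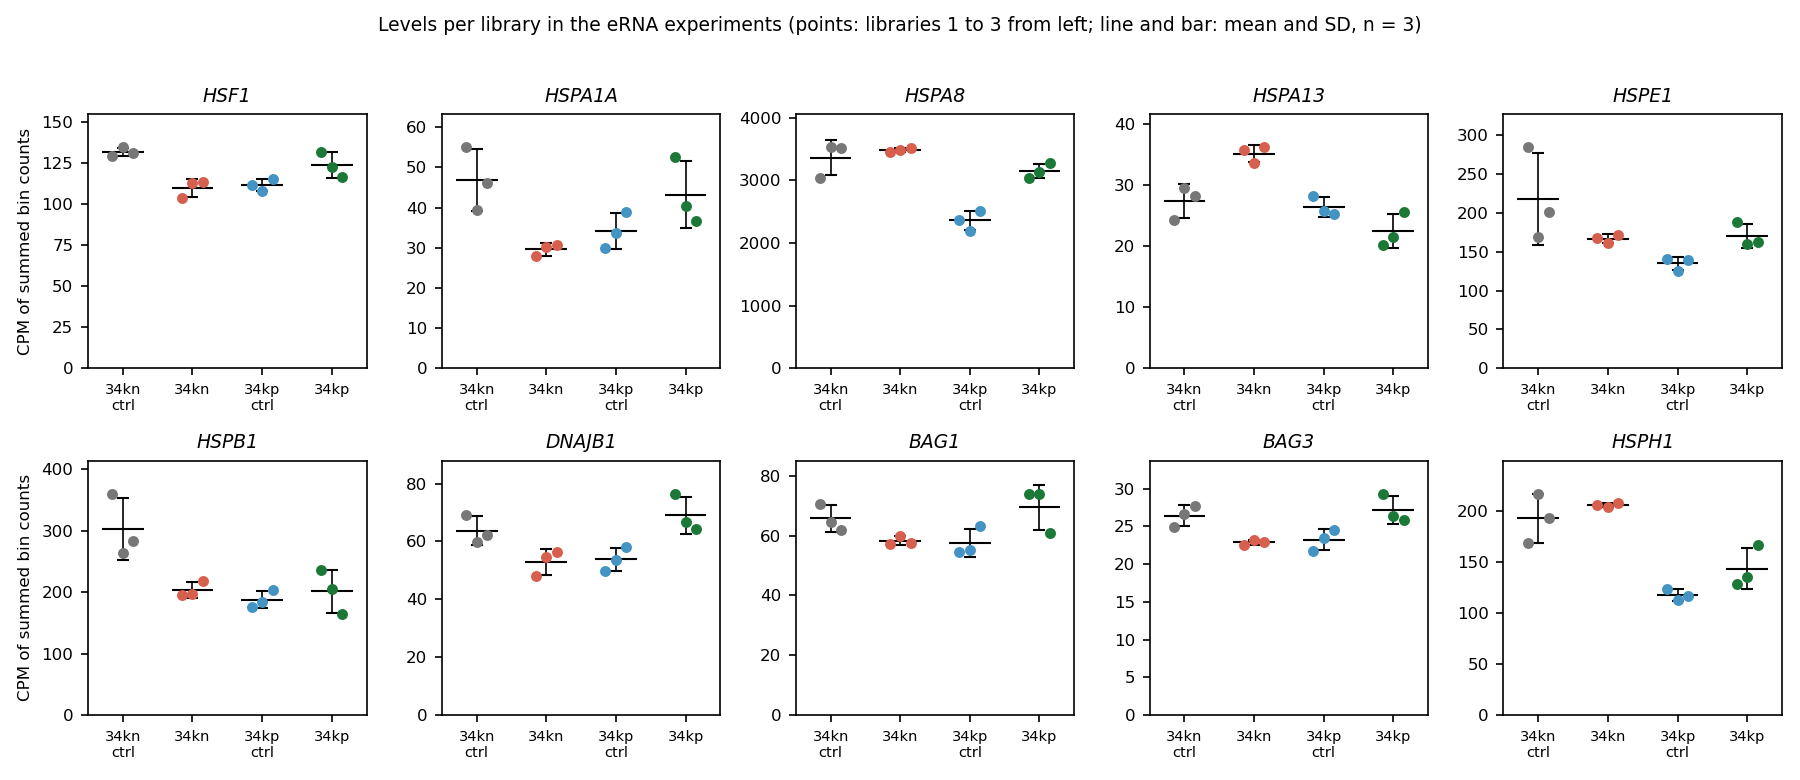
Levels in CPM of summed exon-bin counts, scaled by TMM over 12 libraries, of 10 members in the eRNA experiments, with 1 point per library and the mean and SD of each group (n = 3). HSPA1A, HSPB1 and HSF1 lie lower with 34kn than in its controls, HSPA8 lies higher with 34kp than in its controls, and the 2 sets of controls differ in HSPA8, HSPH1 and HSPB1.

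The difference between the experiments was tested directly, as the 34kp effect minus the 34kn effect over 12 libraries. The effect of 34kp lay above that of 34kn for 8 members and below it for 1, where 6.36% of all 17323 gene names were called, 3.53% higher and 2.83% lower. HSPA1A had the largest difference, 1.00 (SE 0.20, adjusted p = 0.0098), made up of a value below 0 with 34kn and one above 0 with 34kp, neither of which passed the threshold on its own. HSPE1, HSPB1 and DNAJB1 differed by 0.72 (SE 0.19, adjusted p = 0.036), 0.67 (SE 0.17, adjusted p = 0.031) and 0.63 (SE 0.13, adjusted p = 0.013). HSPE1 was read here under its name joined with MOB4, so its value includes the reads of that gene. BAG1 and BAG3, which with HSPB8 sorts clients for autophagy, differed by 0.45 and 0.43 (adjusted p = 0.048 and 0.046), HSF1 by 0.41 (SE 0.09, adjusted p = 0.021) and HSPA8 by 0.37 (SE 0.09, adjusted p = 0.03). HSPA13 differed in the other direction, by -0.60 (SE 0.15, adjusted p = 0.026). HSF2 was not called, at -0.44 (SE 0.21, adjusted p = 0.21), nor was HSPA1B, at 0.32 (SE 0.17, adjusted p = 0.26).

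In BAG1 the values were 70.7, 64.7 and 62.1 CPM in the 34kn controls, 57.4, 60.0 and 57.4 with 34kn, 54.5, 55.2 and 63.1 in the 34kp controls and 74.0, 73.9 and 60.8 with 34kp. The groups of the 34kn experiment were apart and those of the 34kp experiment overlapped. In BAG3, in the same order of groups, they were 24.9, 26.6 and 27.7, 22.6, 23.1 and 22.9, 21.7, 23.4 and 24.6 and 29.3, 26.4 and 25.8, apart in both experiments and in opposite directions. DNAJB1, with 69.2, 59.7 and 62.3 in the 34kn controls and 47.9, 54.5 and 56.3 with 34kn, likewise lay lower in all libraries with 34kn, and higher in all with 34kp, than in their controls. For HSPA13 the 34kp experiment gave 28.3, 25.8 and 25.3 and 20.2, 21.5 and 25.6 CPM. Those groups overlapped, and the 34kn experiment had them apart.

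The calls of HSPA1A and DNAJB1 were kept without any 1 library. Summed as 1 gene with the joined name that holds HSPA1B, HSPA1A was not called (0.45, adjusted p = 0.12 in edgeR). That joined name also holds the reads of SNHG32, so the sum is not of the Hsp70 pair alone. HSF1 was lost without 34kn replicate 1 or 34kp control replicate 1 or 2. The other 6 members were each lost without at least 7 of the 12 libraries, 34kn replicates 1 and 2, 34kp control replicates 1 and 2 and 34kp replicate 2 being common to all 6. The count of members called ran from 2 (without 34kn replicate 1 or 34kp control replicate 1 or 2) to 14 (without 34kp replicate 3), and the share of all gene names called ran from 2.14% (without 34kp control replicate 2) to 15.4% (without 34kp replicate 3). It was 3 without 34kn replicate 2 or 34kp replicate 2, and 4 without 34kn control replicate 3, 34kn replicate 3 or 34kp replicate 1. Scaled by total count, 414 gene names were higher and 617 lower, in place of 611 and 491, and 5 members were higher and 1 lower, HSPA8, BAG1 and BAG3 being lost. From the lists kept apart from the members, DEDD2 (0.56, under a name joined with ERF, GSK3A and 2 unnamed genes), GRPEL1 (0.59), which exchanges the nucleotide of HSPA9, and CLPP (0.47) were higher in this contrast. Of the erythroid markers LMO2 was called as higher (0.57), and its part in the member values was not tested.

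The controls of the 2 experiments were not alike in these genes. Of 41 members 25 were lower in all 3 of the 34kp controls than in any 34kn control (24.0% of all gene names were so), and 5 were higher (25.4%). AHSA1 stood at 0.516 of its level in the 34kn controls, HSPH1 at 0.610, FKBP4, an immunophilin of the Hsp90 complex, at 0.620 and DNAJA3, the mitochondrial J protein, at 0.610. HSPH1 measured 168, 217 and 194 CPM in the 34kn controls and 124, 113 and 117 in the 34kp controls, and AHSA1 193, 168 and 182 and 86.7, 89.8 and 104. The 5 higher members were HSF2, DNAJA2, PTGES3, CCT4 and TCP1. Experiment and control group cannot be told apart here, so these values are given without a test.

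Exon usage was read from the bins, each of which is a numbered part of the exons of a gene. Bin numbers ran with the genome coordinate: the bin with the most reads lay among the upper bin numbers in 80.4% of 4647 genes on the plus strand and in 21.3% of 4509 on the minus strand. Each bin was tested for a fold change unlike that of its gene as a whole, and the bins of a gene were combined by Simes' method. With 34kn, 9 members were called, where 7.24% of 11407 gene names were. They were CCT4, HSP90AA1, TCP1, PTGES3, DNAJB1, CCT2, AHSA1, DNAJC7 and FKBP4. The F test over all bins of a gene called 20 members and 19.9% of all gene names. Of 1012 tested member bins 24 were called (2.37%), beside 1717 of 216197 bins over all gene names (0.794%). All 24 called bins of members, in 12 genes, were lower with 34kn relative to their gene, as were 1669 of the 1717. Of the 24, 10 lay under joined names, those of HSPA8, HSPA9 and TCP1 with small nucleolar RNA genes.

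CCT4, a TRiC subunit on the minus strand, had its call in bin 19 of 20, next to the gene start. That bin held 1534, 825 and 1032 counts in the controls and 585, 689 and 768 with 34kn, without overlap, a relative log2 fold change of -0.58 (gene adjusted p = 2.8e-05). In the 34kp experiment the same bin held 732, 942 and 935 in the controls and 1300, 1033 and 642 with 34kp, a wide and overlapping spread. In HSP90AA1, also on the minus strand, bins 26 and 25 of 32 fell by 0.55 and 0.51 relative to the gene (gene adjusted p = 2.4e-04). Bin 26 held 2167, 1282 and 1456 counts in the controls and 1007, 982 and 1086 with 34kn, again all lower. TCP1 had 6 called bins, 45 to 50 of 52, of which bin 45 held 1050, 367 and 497 and 334, 287 and 344 counts, a relative -0.75 (gene adjusted p = 7.3e-04). One read can count in several adjacent bins, so such runs are not independent.

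PTGES3 was called in bins 19, 20 and 21 of 22 on the minus strand, with relative log2 fold changes of -0.51, -0.92 and -0.84 (gene adjusted p = 0.0016). CCT2 was called in bin 4 of 37 on the plus strand (-0.49, 0.0031 for the gene), and FKBP4 in bin 1 of 26, also plus (-0.61, 0.029). DNAJC7 was called in bins 82 and 81 of 96 on the minus strand (-0.56 and -0.56, 0.029). AHSA1, on the plus strand, had bin 5 of 33 at its start side and bin 30 at its end side (-0.63 and -0.52, 0.019). DNAJB1, on the minus strand, was called in bin 19 of 51 (-0.91, 0.0018), which held 257, 88 and 102 counts in the controls and 39, 55 and 55 with 34kn.

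Among the 33 members with a name of their own, 11 of 14 called bins (78.6%) lay among the start-side bins, which made up 45.0% of their tested bins. Over all single genes 86.3% of the called bins and 44.4% of the tested bins lay there. The share of member counts in start-side bins was 36.1%, 34.7% and 34.9% in the 34kn controls and 34.2%, 34.2% and 34.3% with 34kn, and over all single genes 40.96%, 37.9% and 38.9% and 37.2%, 37.2% and 37.6%. In raw counts, not scaled by library size, control replicate 1 was highest of the 6 libraries in all 24 called bins. The groups did not overlap in 18 of them. These bins had been chosen by their call, so that is no added evidence, and the share over all tested bins was not computed. By total count control replicate 1 was also the largest of the 6 libraries, at 40040021. Without that control 5 members were called (HSPA1B, HSP90AA1, FKBP4, PTGES3 and CCT4), without control replicate 2 there were 26, without 34kn replicate 1 there were 3 and without 34kn replicate 2 there was 1, CCT4. The share of all gene names called was 1.52%, 22.7%, 1.76% and 0.954% in the same order, in place of 7.24%. Whether coverage along the transcript accounts for the calls was not tested.

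With 34kp, 0 members were called for exon usage, where 0.0853% of 11721 gene names were, and the F test called 0 members and 0.486% of gene names. The members with the lowest gene p were CCT3, HSPA1B and HSPA8, each with an adjusted p of 1.00 (unadjusted 0.019, 0.069 and 0.091). The start-side share of the members was 33.3%, 33.9% and 33.9% in the 34kp controls and 34.1%, 33.3% and 32.6% with 34kp, and those groups overlapped. The difference in exon usage between 34kn and 34kp was not tested.

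**Figure D5:**
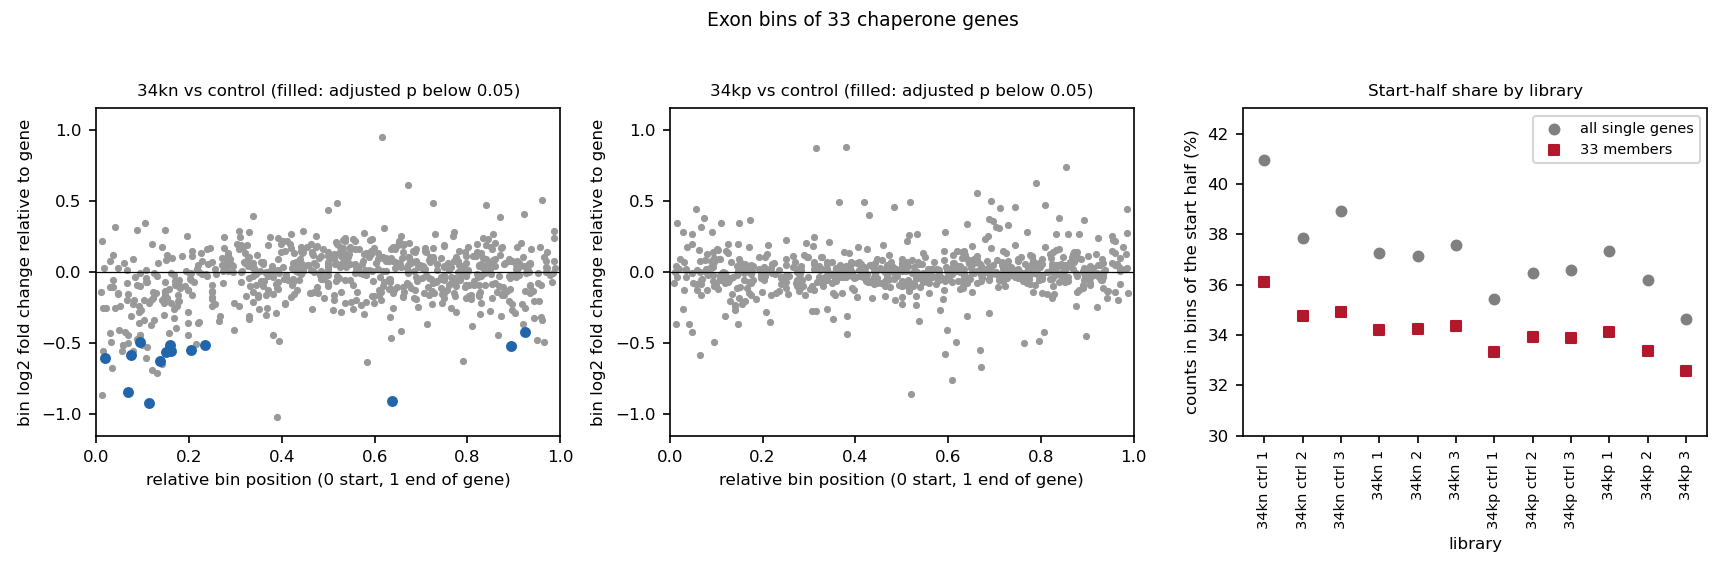
Left and middle, log2 fold change of each tested bin relative to its gene against its place among the bins of the gene (0 at the start, 1 at the end), for 33 members in the 34kn and 34kp comparisons, with called bins filled. Right, percent of counts in the start-side bins in the 12 libraries, on an axis that does not begin at 0, where 34kn control replicate 1 is highest at 36.1% for the members and 40.96% for all single genes.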

How the data were processed

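Gene expression was measured by RNA sequencing in 21 K562 libraries, 3 in each of 7 groups taken from the labels. The authors deposited raw counts of both kinds used here: exon-bin counts of 12 libraries, and a table of gene counts of 9. The submitters' processing notes name Trimmomatic 0.93 and the build GRCh38, with STAR 2.7.10a for the bins and HISAT2 2.2.1 and featureCounts 2.0.1 for the genes. The annotation release, the strand setting, the bin counter and the treatment of multiply aligned reads are not given in the sources used here. Without a known strand setting, reads from antisense partners cannot be told apart.

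Counts were analysed with edgeR 4.0.16 in R 4.3.3: scaling by TMM, a minimum count of 10 in filterByExpr, the robust quasi-likelihood F test (two-sided) and Benjamini-Hochberg adjustment over all genes, with a threshold of 0.05. The 9 gene-table libraries were fitted together and each eRNA experiment on its own 6, with bins summed per gene name. The difference between experiments was an interaction over 12 libraries. All 41 members passed the filter in every comparison. Standard errors are the log2 fold change divided by the square root of F. Exon usage was tested with diffSpliceDGE in genes that kept at least 2 bins. DEXSeq, named in the design text, was not run. Levels are CPM scaled by TMM, per kb of exon union in GENCODE 29 where genes are compared. All fits were first tested on simulated data. No 2 replicates matched within sampling noise in the 21 pairs within groups (chi-square per degree of freedom 1.59 to 51.7).

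Symbols were matched by gene ID for 121 of 122 genes and by GENCODE 29 for HSPB11. The members and the lists were chosen with earlier results of these data known. Every called member is named, per-library values are given for HSF1, HSF2, HSPA1A, HSPA1B and up to 8 called members per comparison with the largest change, and up to 3 called genes of each other list. Up to 3 bins per called member are named, apart from TCP1, whose 6 bins were named after their values were seen. Promoters were limited to called members with the 3-unit element, HSPB1 being the exception stated. Alternatives were DESeq2 1.42.0, scaling by total count, no count filter, a replicate block, fits over other libraries, HSPA1A with HSPA1B summed, and leaving out each library. Same-numbered replicates of compared groups correlated from -0.19 to 0.12 over genes, with 2 of 15 pairs over 0.1, so the numbers were not taken to pair samples. A further marker list is not reported here.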

Additional observations from a re-analysis of the deposited data

Results flagged for a closer look

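The effects of the eRNAs on 9 members differed between the 34kp and 34kn experiments in the edgeR test of the difference itself, each over 12 libraries. On the log2 scale, 34kp minus 34kn, the differences were 0.41 for HSF1, 1.00 for HSPA1A, 0.37 for HSPA8, 0.72 for HSPE1, 0.67 for HSPB1, 0.63 for DNAJB1, 0.45 for BAG1, 0.43 for BAG3 and -0.60 for HSPA13. HSPE1 and HSPA8 were read under joined names, so their values include the partners' reads. The experiments also differed in their controls, as the report gives.

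Outside the bins themselves, reads called ambiguous made up at least 0.0215% of counted items in the 34kp libraries, above the 0.0158% to 0.0171% of their controls. The 34kp libraries also held a lower share of reads of low alignment quality, 4.46% to 4.64%, beside 7.14% to 8.35%.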

How the results depend on the processing

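Of 32 member calls at gene level 0 reversed and 12 were kept under every alternative run for them. Counts of members called were within 1.5 times of those reported under the other settings, with these exceptions. The share of all genes or gene names called is given in brackets. For 34kn against control, DESeq2 gave 4 (5.91%) and no count filter 7 (5.24%), in place of 0 (0.0%). For 34kp, DESeq2, no count filter and a fit over all 12 bin libraries gave 4 each (5.74%, 3.23% and 4.72%), in place of 1 (2.35%). For NMYB against MYB, no count filter and a fit of only the groups compared gave 1 each, HSPB1 (1.84% and 0.388%), in place of 0 (1.14%). For exon usage with 34kn, the F test gave 20 (19.9%) in place of 9 (7.24%).

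A replicate block gave 0 for 34kp, 0 for the difference between experiments in place of 9, and 4 for NMYB against MYB in place of 0 (HSF1, HSPH1, TRAP1 and HSPB1). Over all genes it called 0.426%, 0.606% and 7.48% in the same order, in place of 2.35%, 6.36% and 1.14%. The replicate numbers were not taken to pair samples, and the cause was not tested. In 2 of 3 numbers for each MYB-experiment comparison, 0 of 3 for 34kn and 1 of 3 for 34kp, a library correlated best with its own number.

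Leaving out 1 library gave 7 to 11 for MYB against empty vector, 6 to 17 for NMYB, 0 to 1 for NMYB against MYB, 0 to 15 for 34kn, 0 to 7 for 34kp, 2 to 14 for the difference and 1 to 26 for exon usage with 34kn. Exon usage with 34kp stayed at 0 in all settings run. Counting error weighs most on the least abundant members, of which the lowest value in any library was 15.8 CPM, for DNAJB4.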
